A study of Mus musculus with 35 samples.

Results

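The 88 genes described here are olfactory receptor genes whose RNA was counted in mouse tissues other than the nose. They were chosen by a rule on measured counts: a gene annotated as protein-coding in the gene models of the study, with a symbol that begins with Olfr, and with reads that summed to 50 or more over all 29 short-read libraries. This selected 88 of 1131 coding Olfr genes, or 7.78%. Each gene was then assigned to the tissue in which its mean level was highest, in CPM (a gene's counts divided by the library total and scaled to 1000000). Since total count and tissue of highest level were the values selected on, the tissue pattern of the 88 genes is given as a description, without a test.

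The libraries held rRNA-depleted total RNA of adult C57BL/6J mice, an inbred laboratory strain, from brain, cerebellum, heart, colon and gonad of both sexes. Each of the 10 groups of tissue and sex had 3 libraries, apart from male heart with 2. No allele, transgene or agent is named for any group, female gonad is called ovary and male gonad testis. A further 6 long-read samples (Iso-seq, full-length cDNA) entered only through the gene models. The labels do not say whether the libraries of a group came from separate animals or pools, so p-values measure the spread between libraries, which may be technical. Library totals ran from 11742417 to 36194255 counts, lowest in colon, and 3 counts were worth between 0.0829 and 0.255 CPM. Of 18 tissue markers checked, 16 did not overlap between their tissue and the others. The locus that holds Gdf9, an oocyte gene, was highest in heart. Xist was at 32.2 CPM or more in females and at most 0.281 in males, and Ddx3y at 29.1 or more in males and at most 0.596 in females. In bulk RNA, fewer cells of a type and less RNA per cell cannot be told apart.

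Olfactory receptors are G protein-coupled receptors of the cilia of olfactory sensory neurons, where each neuron normally chooses a single receptor gene. Odorant binding activates the G protein subunit encoded by Gnal, the cyclase Adcy3 and a cyclic nucleotide-gated channel. The genes lie in clusters, with the class I receptors in a single cluster on chromosome 7, and transcripts of some receptors are known from testis and sperm as well as from vessels, kidney and gut.

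A coding sequence was available for all 88 genes in GENCODE M21 (GRCm38.p6), with a length of 303 to 341 codons and a median of 313, the same as the median over all coding Olfr genes. The stretch shown first is typical of the family, 30 bases that code for the Asp-Arg-Tyr signature behind the third membrane-spanning segment. It was found in 71 of the 88 genes and in 887 coding Olfr genes in all. Capitals mark the 3 codons of that signature. Apart from Olfr1393, the genes are among the leading members of testis, cerebellum, colon, ovary and brain that are described below. Olfr1393 was in place 21 of the testis genes by mean CPM.
Olfr733: atggcctttGACCGCTACattgccatctgc
Olfr715: atgtcctatGATCGGTATgtggctatctgt
Olfr1508: atggcctatGATCGCTATgtggctatttgt
Olfr1393: atggcttttGACCGCTATgttgctgtgtgt
Olfr1564: atgggctatGACCGCTACgtggccatctgt
Olfr55: atgggttatGACCGCTACgtggccatctgt
Olfr78: atggcctttGACCGGTACgtggctatctgc
Olfr558: atggcctttGACCGCTATgtggccatttgc
Olfr328: atgtcttatGACCGCTATgtagccatctgt
Olfr316: atgtcctatGACAGGTATatagccatctgc

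The stretch of Olfr733 lies on the minus strand at chr14:50298927-50298956, that of Olfr1564 on the minus strand at chr17:33215962-33215991, and that of Olfr78 on the minus strand at chr7:102742624-102742653. Olfr55 and Olfr239, which are neighbours on chromosome 17 and both highest in cerebellum, had the same stretch, as did the testis genes Olfr733 and Olfr732.

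Near-identical receptor genes can split or lose reads when only uniquely placed reads are counted. Over the coding sequence, 42 of the 88 genes (47.7%) had at least 1 window of 100 bases that occurs unchanged in another coding Olfr gene, against 41.1% of the other 1042. For 23 members such windows made up 10% or more of the coding sequence, with the highest share, 48.8%, in Olfr239, whose closest copy is Olfr55. The share over all other coding Olfr genes was 37.5% for Olfr715 (closest copy Olfr715b), 31.7% for Olfr127 (closest Olfr128) and 14.2% for Olfr544 (closest Olfr545). These shares cover the coding sequence only and exact copies in other coding Olfr genes, while counts were made over whole exon models. The counts of these genes are uncertain, and how many reads are affected was not measured.

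The 88 genes were weakly expressed. Their totals ran from 52 to 1127 counts over 29 libraries, with a median of 104.5, and 49 genes had 100 or more. Of the other coding Olfr genes, 489 had no count, 401 had 1 to 9 and 153 had 10 to 49. The 88 genes held 13071 of the 17834 counts of the coding family, or 73.3%. No member was counted in all 29 libraries, and 8 had 50% or more of their counts in a single one. On a scale of CPM per kilobase of exon (FPKM), which allows levels of different genes to be compared, 65 members reached 0.1 and 5 reached 1 in their highest tissue. Members had longer exon models than the rest, with a median of 3696.5 exon bases against 2924 in the other coding Olfr genes and 2660 in those with no count. A longer model collects more reads at the same level, so a minimum on counts favours it.

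**Figure D1:**
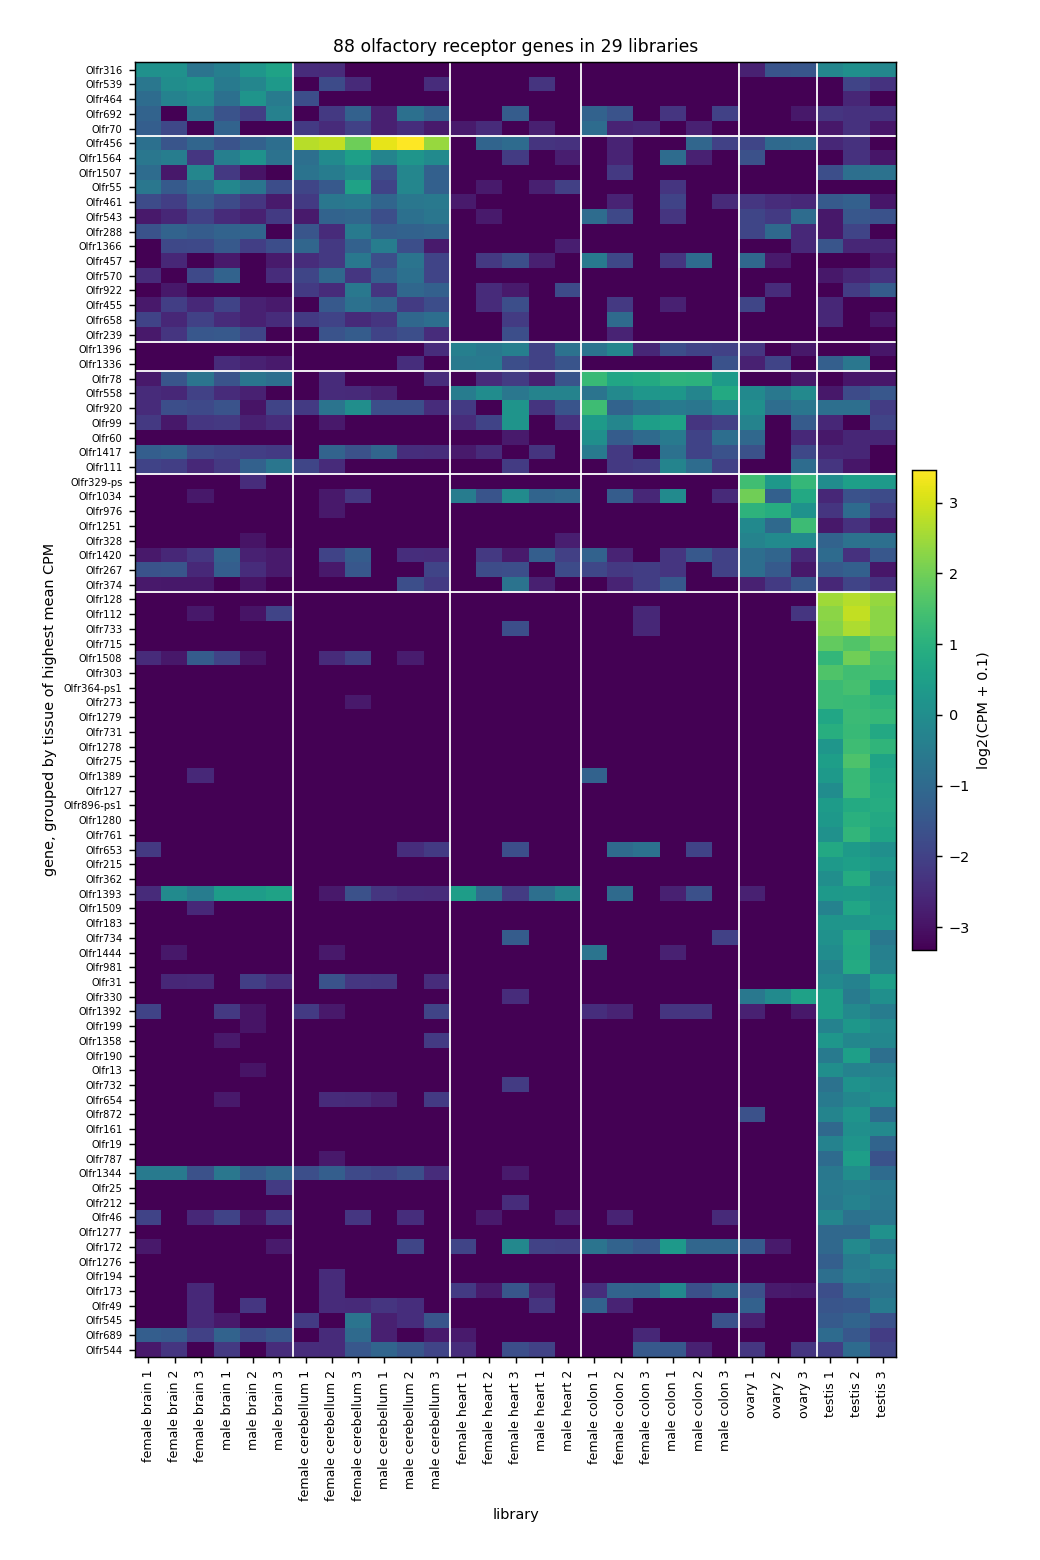
Levels of the 88 genes (rows, grouped by the tissue of highest mean CPM and ordered by that mean) in 29 libraries (columns), coloured as log2(CPM + 0.1). The lowest block, 52 genes, is bright in the 3 testis columns and mostly dark elsewhere, while the cerebellum, colon and ovary blocks are faint, with Olfr456 as the exception in cerebellum.

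Testis was the leading tissue. It was the tissue of highest mean for 52 of the 88 genes (59.1%), ahead of cerebellum with 14, ovary with 8, colon with 7, brain with 5 and heart with 2. Among 2446 other protein-coding genes with totals in the members' range, 35.6% were highest in testis. Genes counted under long-read loci carry no coding label, so that share leaves them out. Of the 153 coding Olfr genes just below the count minimum, with 10 to 49 counts, 95 (62.1%) were highest in testis. The 3 testis libraries supplied 7085 of the members' counts, or 54.2%.

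The summed level of the 88 genes was 69.1, 93.8 and 72.1 CPM in the 3 testis libraries, with a mean of 78.3 ± 13.5 (SD, n = 3). It was 14.5 ± 3.21 CPM in cerebellum (n = 6), 13.3 ± 4.42 in ovary (n = 3), 9.24 ± 0.851 in brain (n = 6), 8.95 ± 2.70 in colon (n = 6) and 5.14 ± 2.46 in heart (n = 5). Every testis library stood above the highest library elsewhere, a male cerebellum library at 19.5 CPM. Among the other tissues the ranges of cerebellum, ovary, brain and colon overlapped. In heart, female heart 3 had 9.45 CPM and the other 4 libraries had 3.27 to 4.48.

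The same libraries also detected the most receptor genes. Between 292 and 368 coding Olfr genes had a count in a testis library, against 27 to 94 in any other. Brought by calculation to the depth of the shallowest library, the expected numbers were 213 to 268 in testis and 20.5 to 66.2 elsewhere. Within testis, library 2 had the highest level for 34 of the 52 genes and libraries 1 and 3 for 9 each. That library also had the highest summed level of 3 spermatid markers (Prm1, Tnp2 and Acrv1), 5094 CPM against 4230 and 4309, and their part in the result was not tested. Testis libraries held 263 to 326 CPM of 3 spermatocyte markers and 1719 to 2491 CPM of 3 Leydig cell markers. The Sertoli cell list summed to 713 to 723 CPM in testis and up to 1225 in brain, most of it from Clu. Its member Rhox5 was at 11.0 CPM in testis and at most 0.731 in the other tissue means, while Sox9 was highest in cerebellum.

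**Figure D2:**
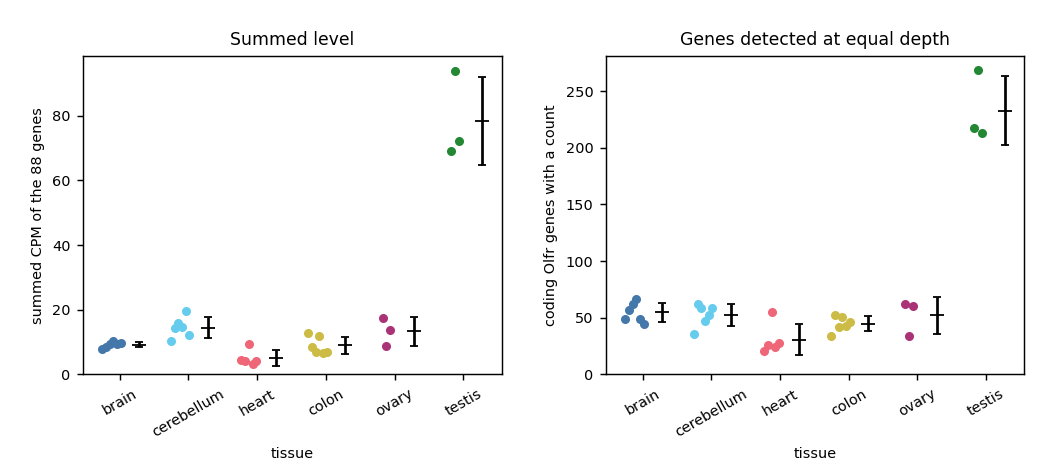
Summed CPM of the 88 genes per library (left) and the expected number of coding Olfr genes with a count at the depth of the shallowest library (right), by tissue. Each coloured point is a library and the black bar is the mean with SD. The 3 testis points, at 69.1 to 93.8 CPM and 213 to 268 genes, stand above all others.

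Most of the 52 genes had nearly all their counts in testis. The median share of a gene's counts that came from testis was 98.2%, and 38 genes had 90% or more there. For 21 genes every count was from testis, and 42 genes had no count in ovary. In 43 of the 52 genes the 3 testis libraries did not overlap the other 26 libraries. Over all 30954 genes with a total of 50 or more, 22.0% showed that separation, a share from which nothing is read here because the selection used the same contrast. The same holds for the other tissues below, where the share over all genes includes genes of any leading tissue. All 52 genes had 3 or more counts in each testis library.

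**Figure D3:**
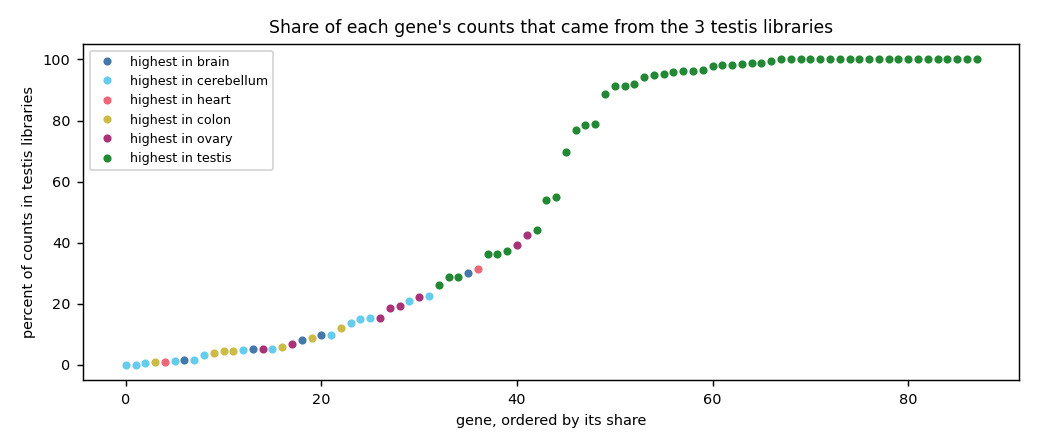
Share of each member's counts that came from the 3 testis libraries, in percent of its total, with the 88 genes ordered by that share and coloured by their tissue of highest mean CPM. The testis genes rise to a plateau, with 21 of them at 100%, and the genes of other tissues lie at the left.

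The leading testis gene was Olfr128 on chromosome 17 (ENSMUSG00000059030, chr17:37920548-37926801, plus strand), with 5.52, 6.43 and 5.14 CPM in the 3 testis libraries. All its 514 counts came from testis. Its lowest testis library was at least 20.1-fold higher than 0.255 CPM, the value of 3 counts in the shallowest other library. Olfr112, in the same cluster (chr17:37561668-37569451), had 4.81, 7.11 and 4.75 CPM in testis and at most 0.164 in any other library. In both genes the testis libraries lay above all others.

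Olfr733 on chromosome 14 (chr14:50295891-50301522) had 4.53, 6.14 and 4.81 CPM in testis and reads in only 2 other libraries, at 0.208 CPM in female heart 3 and 0.0679 in female colon 3. Olfr715 (chr7:107125267-107131083) had 3.48, 3.01 and 3.74 CPM in testis and no count elsewhere. On the opposite strand its exons share 391 bases with the lncRNA Gm45868, so a count made without strand would mix the pair. Olfr1508 (chr14:52458829-52467495) had 2.14, 3.88 and 2.70 CPM in testis and low counts in 5 brain and 3 cerebellum libraries, at most 0.293 CPM. These 5 genes made up 29% of the summed testis level.

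Per length, the order of the leading testis genes changed. Olfr128 kept the highest mean among testis genes, 1.55 FPKM, followed by Olfr761 with 1.47, Olfr733 with 1.40 and Olfr112 with 1.17, and the spread between testis libraries overlaps for these. Olfr1508, in place 5 of the 52 genes by mean CPM, was in place 13 by mean FPKM, while Olfr761 moved from place 17 to 2. Olfr761 is a short model of the chromosome 17 cluster whose 138 counts were all from testis, at 0.984, 2.10 and 1.46 CPM. Over the 52 genes the mean level in testis ran from 0.0464 to 1.55 FPKM, with a median of 0.283.

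Some of the testis genes overlapped with other tissues, with examples here and below. Olfr1393 (chr11:49278304-49282769) had 1.16, 1.20 and 1.01 CPM in testis. In brain it ran from 0.0777 over a median of 1.04 to 1.39 CPM, and in heart from 0.125 over 0.459 to 1.27, so testis overlapped with both. Its neighbour Olfr1392, 2513 bases away, was at 0.897 CPM in testis and at most 0.0593 on average in any other tissue. Of the coding windows of Olfr1393 and Olfr1392, 14.4% and 20.1% occur in another coding Olfr gene, each being the other's closest copy. The split of counts between these neighbours is uncertain. Olfr544, a receptor known for binding azelaic acid, had 0.141, 0.420 and 0.163 CPM in testis and up to 0.367 in cerebellum, with a total of 84 counts. It reached 0.272 CPM in colon and 0.208 in heart. Its level in testis did not stand apart from that in cerebellum, colon or heart.

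**Figure D4:**
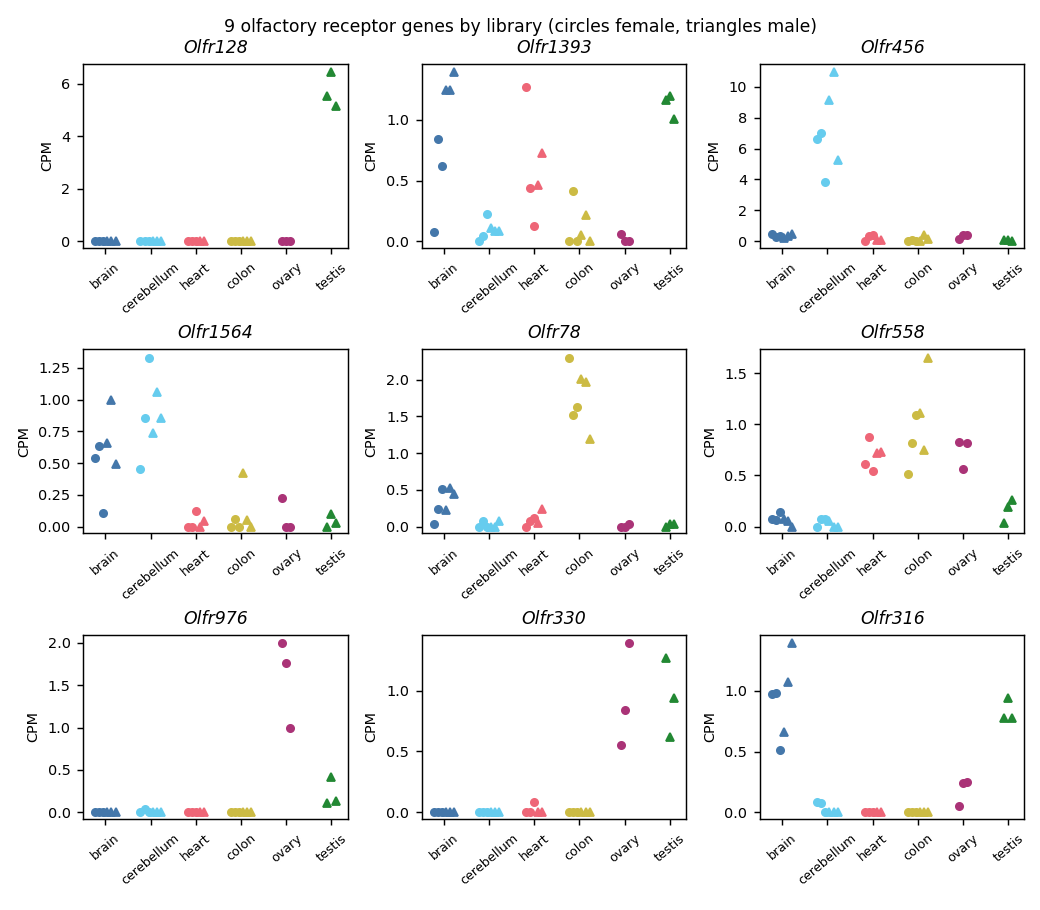
CPM of 9 receptor genes per library, by tissue, with circles for female and triangles for male libraries and a separate scale for each gene. Olfr128 is at 0 outside testis, Olfr456 stands out in cerebellum (3.84 to 11.0 CPM) and Olfr78 in colon (1.20 to 2.30 CPM). Olfr558 is spread over colon, heart and ovary, and Olfr330 over ovary and testis.

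The strongest of all members was a cerebellum gene. Olfr456 (ENSMUSG00000090631, chr6:42486163-42487214, minus strand) had 6.59, 7.01 and 3.84 CPM in the female and 9.17, 11.0 and 5.26 CPM in the male cerebellum libraries. The highest library outside cerebellum, a brain library, had 0.466 CPM, and the testis libraries had at most 0.097. With 6.79 FPKM in cerebellum and 1127 counts, it was above every testis gene per length. It was the only one of the 14 cerebellum genes whose libraries did not overlap the other tissues. Over all 30954 genes of any leading tissue 2.6% did so, a share from which nothing is read.

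The model of Olfr456 is a single stretch of 1052 bases, and its neighbours Olfr457 and Olfr455 were also highest in cerebellum, at 0.272 and 0.242 CPM. Of the coding windows of Olfr457, 11.9% occur in another coding Olfr gene, with Olfr456 as the closest. The 250 bases before its start, chr6:42487215-42487464 on the minus strand (RefSeq, GRCm38.p6), hold no exon of the gene models and are shown because this gene carries the cerebellum signal. Capitals mark the homeodomain motif, TAATNA, read on the opposite strand.
Olfr456 upstream: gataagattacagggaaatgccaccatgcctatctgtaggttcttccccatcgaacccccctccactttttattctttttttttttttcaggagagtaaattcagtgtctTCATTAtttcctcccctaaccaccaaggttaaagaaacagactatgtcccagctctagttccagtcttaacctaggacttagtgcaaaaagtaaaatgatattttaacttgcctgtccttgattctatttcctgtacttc

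That motif was present, on either strand, in the same window of 24.8% of 27025 genes and of 64.0% of 928 coding Olfr genes in the table. The letters TATAAA were not found in the window and occurred in 13% of all genes and 39.1% of the coding Olfr genes. For the other members the RefSeq windows are of limited use. A window was present for 74 of the 88, but in only 14 did its start site lie within 100 bases of the deposited gene start, and in 6 of these the upstream bases held no exon. A match is a description of letters and not of binding.

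The other cerebellum genes were low, and each had at least 1 count in brain. Olfr922 was the lowest there, with 1 count, and had a range of 0.0779 to 0.554 CPM in cerebellum. Olfr1564 (chr17:33211206-33221690) ran from 0.456 over a median of 0.857 to 1.33 CPM in cerebellum and from 0.11 over 0.588 to 0.995 in brain. Olfr55 (chr17:33168447-33180753) ran from 0.157 over 0.300 to 1.40 CPM in cerebellum and from 0.205 over 0.483 to 0.778 in brain, where its median was the higher of both. Olfr239 lies between them and had 0.163 CPM in cerebellum and 0.14 in brain. The 3 neighbours have parts of their coding sequence in common, so the split of counts between them is uncertain.

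Olfr1507 (chr14:52488791-52495749), next to the testis gene Olfr1508, ran from 0.210 over 0.560 to 0.849 CPM in cerebellum and had 0.211, 0.453 and 0.488 in testis. Olfr461 ran from 0.124 over 0.548 to 0.591 CPM in cerebellum and up to 0.323 in testis. In neither gene did cerebellum separate from the other tissues. Apart from Olfr456, the cerebellum genes had totals of 251 counts or fewer.

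In brain, 2 of the 5 genes did not overlap the other tissues. Over all genes of any leading tissue 4.77% did so, a share from which nothing is read. Olfr539 (chr7:140659930-140678580) ran from 0.544 over a median of 0.843 to 1.15 CPM in brain and to at most 0.195 in any other library. Its long exon model shares 612 bases with Olfr540-ps1 on the opposite strand, which had 29 counts. Olfr464 (chr11:87913268-87920967) ran from 0.427 over 0.658 to 1.05 CPM in brain, with at most 0.207 elsewhere. Per length, Olfr539 was at 0.0724 FPKM and Olfr464 at 0.295 FPKM in brain.

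Olfr316 (chr11:58752734-58759671) ran from 0.513 over 0.977 to 1.39 CPM in brain, but had 0.773, 0.938 and 0.780 CPM in testis, within that range. It was not counted in heart or colon. Olfr692 ran from 0 over 0.292 to 0.697 CPM and Olfr70 from 0 over 0.0877 to 0.350 CPM in brain, and both overlapped with most other tissues. Brain libraries can contain olfactory bulb. Of 5 bulb markers, Cdhr1, at 12.4 CPM, and Sp8, at 3.74 CPM, were highest in brain. Eomes was highest in cerebellum, Tbx21 in ovary and Doc2g in heart. The part of bulb in the brain levels was not tested.

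In colon, Olfr78 was the leading gene and the only one of 7 that did not overlap the other tissues. Over all genes of any leading tissue 6.23% did so, a share from which nothing is read. Olfr78 is a receptor for short-chain fatty acids that is known from vessel wall, kidney and enteroendocrine cells. Its levels in colon (chr7:102738511-102759471, minus strand) were 2.30, 1.52 and 1.63 CPM in females and 2.01, 1.97 and 1.20 CPM in males, and the highest library elsewhere, from brain, had 0.525. It shares 926 exon bases on the same strand with Olfr560, which had 14 counts. Reads in those bases may belong to either gene, and how many there were was not measured.

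Olfr558, the neighbouring class I receptor (chr7:102702215-102712064), known from smooth muscle, was spread over 3 tissues. It ran from 0.511 over a median of 0.953 to 1.65 CPM in colon and from 0.541 over 0.715 to 0.878 in heart, and had 0.832, 0.562 and 0.819 in ovary. These ranges overlap, while brain, cerebellum and testis stayed at or below 0.260 CPM. Its exons share 101 bases with the pseudogene Gm45688 on the opposite strand, which had 18 counts. Smooth muscle markers (Myh11, Actg2 and Des) summed to 5043 to 15674 CPM in colon, 1245 to 3207 in heart, 700 to 1819 in ovary, 427 to 460 in testis and at most 15.4 in brain and cerebellum. The heart sum was nearly all Des, also a gene of heart muscle, with Myh11 at 19.8 and Actg2 at 1.5 CPM there, below ovary and testis. Enteroendocrine markers (Chga, Tph1 and Pyy) summed to 23.2 to 38.0 CPM in colon but to more in brain (46.6 to 71.7) and cerebellum (38.6 to 67.5), mostly from Chga. Tph1, at 15.2 CPM, and Pyy, at 3.44 CPM, were highest in colon without overlap. The part of either cell type in these levels was not tested.

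Olfr920 had 2.47 CPM in female colon 1 and 0.351 to 0.825 in the other 5 colon libraries. Its colon mean was 0.873 CPM with that library and 0.553 without it, and ovary, at 0.442 to 0.943 CPM, overlapped, as did cerebellum and heart. Without that library its highest tissue mean was that of ovary, 0.640 CPM. Olfr99 ran from 0.106 over 0.977 to 1.43 CPM in colon, with 1.04 in female heart 3. Olfr60 ran from 0.160 over 0.429 to 0.937 CPM in colon and was not counted in brain or cerebellum. Olfr99 had the highest colon level per length, 0.462 FPKM.

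Ovary was highest for 8 genes, and 3 of them did not overlap the other tissues. Over all genes of any leading tissue 8.02% did so, a share from which nothing is read. Olfr976 (chr9:39954139-39961133) had 2.0, 1.77 and 0.997 CPM in ovary, 0.105, 0.420 and 0.13 in testis, and 1 count in all other libraries together. Olfr1251 had 0.832, 0.402 and 2.42 CPM in ovary and at most 0.097 elsewhere. Ovary 3 held 69.4% of its counts, and its ovary mean fell from 1.22 to 0.617 CPM without that library. Olfr1034 was uneven as well, with 3.88, 0.321 and 1.6 CPM in ovary and 0.239 to 0.875 in heart, and it shares 44 exon bases with Olfr1035-ps1 on the opposite strand.

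A group of 3 neighbours on chromosome 11 (chr11:58527186-58555636) was counted in both gonads and almost nowhere else. Olfr328 had 0.721, 0.844 and 0.855 CPM in ovary and 0.351, 0.485 and 0.455 in testis, and its ovary libraries stood above all others. Olfr329-ps, which is annotated as protein-coding in spite of its name, had 2.50, 1.12 and 2.21 CPM in ovary and 0.878, 1.33 and 1.17 in testis. Olfr330 had 0.554, 0.844 and 1.39 CPM in ovary and 1.26, 0.614 and 0.943 in testis, so it counts as a testis gene by a difference within the spread. Outside the gonads the highest library of any of the 3 had 0.0833 CPM. Of the coding windows of Olfr329-ps and Olfr330, 27.4% and 22.5% occur in another coding Olfr gene, and the closest copy of both is Olfr325.

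Heart was highest for 2 genes, neither of which separated from the other tissues. Over all genes of any leading tissue 3.3% did so, a share from which nothing is read. Olfr1396 had 0.658, 0.559 and 0.666 CPM in female and 0.153 and 0.485 in male heart, with up to 0.761 in colon. Olfr1336 had 0.576, 0.599 and 0.208 CPM in female and 0.153 and 0.242 in male heart, with up to 0.55 in testis. Female heart 3 stood apart from the other heart libraries over the members as a group. It had the highest heart level for 25 of the 42 members counted in heart, and 12 of them were counted in no other heart library. It had counts for 64 coding Olfr genes, against 27 to 37 in the others, at a total of 24010606 counts. Without it, the summed heart level was 4.06 CPM.

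Genes at the count minimum were like those inside it. The lowest members were Olfr194, Olfr1276 and Olfr70, with 52 counts each, the first 2 highest in testis and the third in brain. Just outside lay Olfr126 and Olfr279, with 49 counts each, and Olfr554, with 47, all highest in testis. The mean testis level was 0.552 CPM for Olfr194 and 0.542 for Olfr126. Olfr16, a receptor known from sperm, had no count in any library.

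The members were spread over the genome but often lay side by side. With a gap of 1 Mb or more taken as a border, the coding Olfr genes fell into 50 clusters, and 33 of these held a member. The class I cluster on chromosome 7 (chr7:102476579-105369355) held 11 members of 128 genes, 5 of them highest in testis, 3 in cerebellum, 2 in colon and 1 in brain. By contrast, the largest cluster, on chromosome 2 (chr2:85330779-90403897), held 2 members of 227 genes.

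Of 17 clusters with 2 or more members, 7 had members of a single leading tissue, 5 of them testis, and 10 were mixed. On chromosome 16 (chr16:58759544-59363993) all 6 members of 25 genes were highest in testis, as were all 5 of 39 on chromosome 2 (chr2:111230360-112159157), namely Olfr1276 to Olfr1280. For the chromosome 16 neighbours Olfr172 and Olfr173 the lead of testis was within the spread. Olfr172 had 0.387, 0.808 and 0.520 CPM in testis and up to 1.16 in colon. Olfr173 had 0.211, 0.420 and 0.488 CPM in testis and up to 0.794 in colon. On chromosome 14 (chr14:49894258-52495749) 6 of 7 members were highest in testis. On chromosome 17 (chr17:33168447-33275644) all 3 members of 4 genes were highest in cerebellum. Among 1081 adjacent pairs of coding Olfr genes, 27 joined 2 members, and 22 of these pairs had the same leading tissue, 17 of them testis. Adjacent copies can share reads, so neighbours are not independent of each other.

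The levels were compared between the sexes in the 4 tissues that both have, a contrast the selection did not use. Of the 88 genes, 74 passed the filter on low counts, which kept 47 of the 52 testis genes. Many of the 74 could not differ in the tissues compared, since 33 had no count in brain, 36 none in cerebellum, 42 none in heart and 43 none in colon. In edgeR (quasi-likelihood test, adjusted by Benjamini-Hochberg over 29911 genes), 0 of 74 members passed the threshold of 0.05 in brain, cerebellum, heart or colon, and 0 in the interaction of sex with tissue. Of these 74, 21 were highest in one of the 4 tissues, and 0 of 21 passed in any of them. At an unadjusted p under 0.05 there were 1, 1, 0 and 1 members and 1 in the interaction, and DESeq2 called 0 in each. The members with a count in the tissue numbered 41 in brain, 38 in cerebellum, 32 in heart and 31 in colon, and 4.83%, 3.06%, 9.65% and 8.85% of all genes had such a p there. In the interaction, 6.77% of all genes did. Among all genes the shares called higher and lower in males were 0.0201% and 0.0167% in brain, 0.0167% and 0.0134% in cerebellum, 0.0234% and 0.0401% in heart and 0.0903% and 0.234% in colon, and 0.0167% had an interaction. No difference between the sexes was called for a member, which does not show that there was none.

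The members nearest to a sex difference rested on few reads. In brain, Olfr1507 had 0.427, 0.0351 and 0.770 CPM in females and 0.117, 0.0276 and 0 in males, a log2 difference of -2.93 ± 1.03 (SE) with an adjusted p of 0.976 in edgeR. In cerebellum, Olfr316 had 2 female libraries at 0.0829 and 0.0779 CPM and no count in males, with an adjusted p of 1.00 in edgeR. In colon, Olfr658 was counted only in female colon 2, at 0.410 CPM, with an adjusted p of 0.372 in edgeR. Of the 28 members highest in brain, cerebellum, heart or colon, 22 had the same one of these as their highest in females and in males taken alone.

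To see what else of the olfactory system was present in testis, 12 genes of olfactory signal transduction were set against the averaged log level of the 9 groups other than testis. In edgeR's quasi-likelihood test, 11 could be tested, and 5 were higher and 5 lower in testis, beside 40.6% and 26.7% of all genes. The median log2 difference was -0.97 for the list, 0.16 without Slc24a4, which could not be estimated, and 0.11 over all genes. No size is printed for Cnga4, Gfy, Rtp1, Lhx2 and Emx2, which had no count in at least 1 of the groups, so that their fitted values depend on the prior count. Because this contrast averages logs over groups, a gene near 0 in several tissues can be higher in testis and still be highest elsewhere, and a lower one need not be lowest in testis.

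The phosphodiesterases and the channel were on the higher side. Pde1c, which degrades cyclic nucleotides in cilia, had 164 CPM in testis and was higher by 3.91 ± 0.14 (log2, SE), and Pde4a had 61.4 CPM and was higher by 1.84 ± 0.17. Cnga4, a modulating channel subunit, was at 1.29 CPM in testis and at most 0.489 in the other tissue means, and was called higher. Cngb1 was higher by 2.16 ± 0.31 at 2.83 CPM, with ovary above it at 4.47, and the chloride channel gene Ano2 by 1.28 ± 0.37 at 2.51 CPM, with brain above it at 11.4. Cnga2, the main channel subunit, was not tested, with a mean of 0.190 CPM in testis and 61 counts in all.

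The G protein arm and the cyclase were on the lower side. The locus of Gnal, which also holds Chmp1b, fell by 1.77 on the log2 scale and the guanine exchange factor Ric8b fell by 2.14. The beta subunit gene Gnb1 fell by 1.21, the gamma subunit gene Gng13 fell by 1.26 and the cyclase Adcy3 fell by 0.97, to 6.00 CPM in testis. Heart was below testis for Gnal (25.6 against 28.3 CPM) and Gnb1 (169 against 186), and heart and colon were for Gng13 (0.632 and 0.519 against 2.97). Slc24a4, a calcium exchanger, could not be estimated in edgeR, for a reason that was not tested. It had no count in male heart, 0.109 CPM in testis and 19.1 in brain, and DESeq2 called it.

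Of the genes that carry receptors to the membrane, 4 of 5 were tested, with 3 higher and 1 lower, beside the same 40.6% and 26.7% of all genes. Gfy, a Golgi protein of olfactory neurons, was at 2.66 CPM in testis and at most 0.0429 in the other tissue means, with no count in heart, colon or ovary. Rtp1 was called higher at only 0.551 CPM, with brain above it at 1.39. Reep1 was higher by 0.98 ± 0.16 at 42.6 CPM, with brain (72.8), ovary (68.4) and cerebellum (51.6) above it. Rtp4, an interferon-induced member, fell by 1.29, with brain and cerebellum below testis. Rtp2 had 36 counts in all and none in testis.

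Of 6 factors of receptor gene choice, 3 were higher and 1 lower in testis, which is near the 40.6% and 26.7% of all genes. Lhx2 was called higher at 4.17 CPM, with brain above it at 50.6. Emx2 was called higher at 5.72 CPM, with ovary above it at 57.5 and brain at 26.6. The demethylase gene Kdm1a, higher by 1.15 ± 0.10, had its highest mean in testis at 132 CPM. The cofactor Ldb1 fell by 1.42, and Ebf1 and Atf5 did not pass the test, with adjusted p-values of 0.562 and 0.949 in edgeR. Of 8 markers of olfactory sensory neurons, 6 were tested, with 2 higher and 2 lower, also near the shares of all genes. The higher ones were Gfy and Rtp1, given above, and the lower ones were Carns1 and the locus of Omp. In testis S100a5 had no count, Stoml3 was at 0.0217 CPM, Gng8 at 1.03 and Cnga2 at 0.190, which for Cnga2 was the highest tissue mean. The Omp locus also holds Capn5 and was at 2.86 CPM. The summed level of the 8 markers was 7.70 to 9.70 CPM in testis and 31.6 to 39.5 in ovary. In ovary the Omp locus held 30.6 CPM of it, so tissues are not ranked by the sum.

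**Figure D5:**
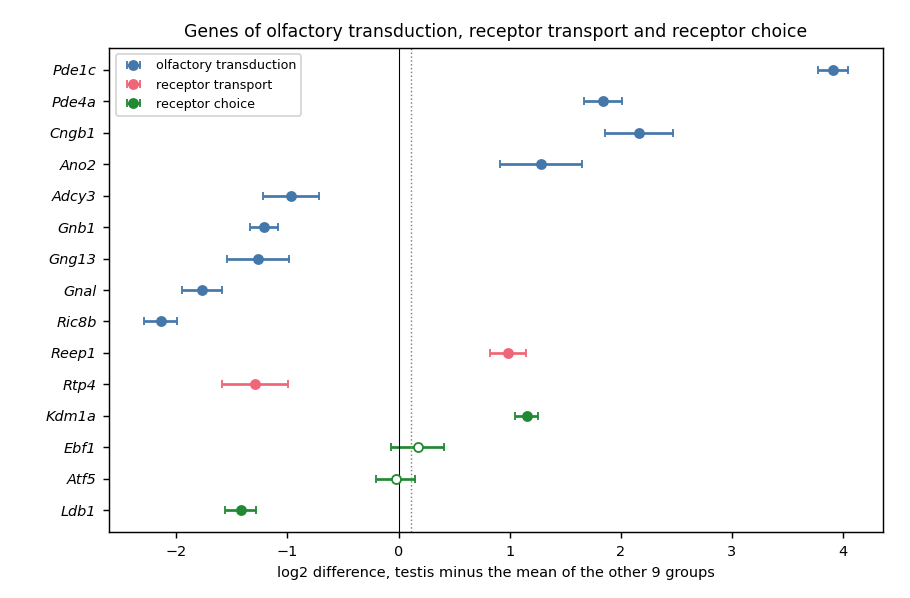
Testis level minus the averaged level of the 9 remaining groups (x axis, log2) for genes of olfactory transduction, receptor transport and receptor choice, with SE bars from edgeR. Filled points passed an adjusted p of 0.05, open points (Ebf1 and Atf5) did not, and the dotted line is the median of all genes, 0.11. Genes with a group at 0 are not drawn. Pde1c lies farthest to the right at 3.91, and the G protein genes Gnal, Gnb1 and Gng13 lie left of 0.

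The spermatid markers were also measured outside testis, where they reached at most 7.07 CPM, in female colon 1, or 0.156% of the testis mean. The 52 testis genes together stood at 0.519 to 2.80 CPM in the libraries of the other tissues, at most 3.88% of their testis mean.

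Another 5 Olfr genes are counted under long-read loci and are outside the rule, since such loci carry no coding label. Olfr701 (chr7:106814164-106819147), at 7.37 FPKM in testis, was above Olfr456 in cerebellum per length. It had 321, 385 and 281 counts in testis and 1 elsewhere. Olfr1033 (chr2:86018685-86023499) was broad, at 40.8 CPM in ovary, 33.5 in heart and 18.2 in cerebellum. Olfr287 was at 12.2 CPM in cerebellum and 10.7 in brain, but its locus also holds Gm44579. The loci of Olfr56 and Olfr643 also hold Ifi47 and Ubqln5, and their 64.2 CPM in colon and 87.2 CPM in testis cannot be assigned to a receptor. No member shared exon bases on the same strand with a long-read locus.

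Other chemoreceptor families were counted by the same minimum. Of 210 Vmn1r vomeronasal receptor genes, 10 reached 50 counts, and all 10 were highest in testis. Of 124 Vmn2r genes, 29 did, with 17 highest in testis. Of 35 bitter taste receptor genes (Tas2r) 1 did, in ovary, of 3 Tas1r genes 2 did, both highest in testis, and of 15 trace amine receptor genes (Taar) 0 did. Of 13 Ms4a genes, some of which act as chemoreceptors, 11 did, with 8 highest in colon and 1 in testis. Among all genes annotated as protein-coding with 50 or more counts, Olfr genes included, 26.0% were highest in testis. Genes under long-read loci are left out of that share as well. Among 272 Olfr pseudogenes 6 reached 50 counts, 2 of them highest in testis.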

How the data were processed

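The authors deposited raw read counts per gene for 29 mouse RNA-seq libraries, with gene models that joined Iso-seq loci to ENSEMBL genes. The submitters' processing notes name FastQC 0.11.8, MultiQC 0.9, HISAT2 2.0.5, featureCounts 1.6.3 and build mm10. The study counted uniquely mapped reads. The strand setting is not given in the sources used here. CPM were computed on library totals, and FPKM on the union of exon bases. The members and gene lists were chosen with earlier results of these data known. Named are the 5 leading genes per tissue, the 3 on each side of the minimum, Olfr genes of Iso-seq loci, 5 receptors known outside the nose and the pathway lists. Olfr761, Olfr127, Olfr172, Olfr173, Olfr330, Olfr239, Olfr1392, Olfr455, Olfr457, Olfr658, Olfr732, Olfr922 and the other receptor families were chosen after their values were seen. Marker lists were brain, cerebellum, heart, colon, ovary, testis, sex, spermatid, spermatocyte, Sertoli, Leydig, enteroendocrine, smooth muscle, olfactory neuron and bulb.

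Genes that passed filterByExpr were tested in 1 edgeR 4.0.16 fit over 10 groups (TMM, quasi-likelihood, Benjamini-Hochberg, R 4.3.3), tested on simulated data. The SE is the log2 difference over the root of F. DESeq2 1.42.0, RLE factors, no filter, a replicate block, fits per tissue and leaving out each library were alternatives. Replicate numbers did not pair the libraries. Floors of 3 counts cover counting error only. Comparisons of tissues over members have no test. The level of 1 marker and some sequences are not reported here.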

Additional observations from a re-analysis of the deposited data

Results flagged for a closer look

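In 21 groups of 4 to 10 libraries that were checked for a value far from the others by Dixon's test, 2 values stood apart, and chance gives about 1 in 20. The summed level of the 88 receptor genes was 9.45 CPM in female heart 3, far above the other 4 heart libraries. Olfr920 was at 2.47 CPM in female colon 1, far above the other 5 colon libraries. The cause was not tested in either.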

How the results depend on the processing

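A minimum of 20 counts gave 157 members, of which 96 were highest in testis, and a minimum of 100 gave 49, of which 29 were. Leaving out each library in turn gave 71 to 88 members, 35 to 53 testis genes and a summed testis level of 61.8 to 78.3 CPM. The lowest of these came without testis 2, the testis library with the highest summed level, where fewer genes also reach 50 counts. By the highest single library 47 of the 88 genes led in testis, by medians 51, and with TMM-scaled CPM 56.

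The counts of members called between the sexes stayed at 0 in brain, cerebellum, heart, colon and the interaction under each alternative. The transduction list kept 10 calls except with DESeq2, which made 11. The replicate block changed no call: with libraries of the same number treated as a pairing, 0 members were called between the sexes and 10 transduction genes between testis and the rest. Of 126 pairs of same-numbered libraries, 5 had correlated deviations over 0.1. The values without female heart 3, female colon 1 and ovary 3 were added after seeing the data. Depth limits what can be seen of the members, whose median total was 104.5 counts over 29 libraries.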
